A study of Mus musculus and Homo sapiens with 107 samples.

Results

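EP400 and 9 other chromatin remodeller ATPases that lie outside the SWI/SNF family were measured in H1299 and A549 cells, which are established human cell lines grown from non-small cell lung cancers. The 10 genes are EP400 (ENSG00000183495), SRCAP (ENSG00000080603), INO80 (ENSG00000128908), CHD1 (ENSG00000153922), CHD2 (ENSG00000173575), CHD4 (ENSG00000111642), CHD8 (ENSG00000100888), SMARCA5 (ENSG00000153147), SMARCA1 (ENSG00000102038) and ATRX (ENSG00000085224). They were taken by these identifiers as remodellers that could compensate for inhibition of SWI/SNF. No measured value enters that rule, but the genes were chosen with earlier results of these data known. They are 10 of the 25530 gene identifiers listed in at least one of the count tables of the lines. All 10 passed the filter on low counts in every fit.

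The groups were H1299 cells given 5 µM BRM014 for 12 h, H1299 cells given DMSO for 12 h, A549 cells given 5 µM BRM014 for 12 h and A549 cells given DMSO for 12 h, with 3 RNA-seq libraries in each. All cells carried the genotype labelled as wild type, and no allele had been engineered. BRM014 is an allosteric compound that blocks SMARCA2 (BRM) and SMARCA4 (BRG1), the ATPases of SWI/SNF, and DMSO is its solvent, given as 0.05% in the sample titles and as 0.5% in the treatment field. Both lines are known to lack functional BRG1 protein, so neither models a cell with the full pair of SWI/SNF ATPases. The question named by the study's title is whether other remodellers are redundant with SWI/SNF, and the RNA counts address the level of their transcripts only.

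Remodellers of the SNF2 superfamily use the energy of ATP to slide, evict, space or exchange nucleosomes. SWI/SNF mainly opens chromatin by moving and ejecting nucleosomes, above all at enhancers. The INO80 and SWR1-related enzymes (INO80, SRCAP and EP400) work on histone variants, the CHD enzymes carry chromodomains and act at transcribed or repressed genes, the ISWI enzymes (SMARCA5 and SMARCA1) space nucleosomes, and ATRX deposits a histone variant at repeats.

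The tables summed to between 28412113 and 50177678 counts per library, and the 10 genes together to between 35127 and 64553. The columns of 2 of the A549 BRM014 libraries carry the same header, so their replicate numbers are unknown, and they are called libraries a and b here. Library a stood apart for several of the 10 genes, as given below with the values without it. A549 DMSO replicate 1 also stood low in its group for CHD1, SMARCA5, SMARCA1 and ATRX. The lines differed in culture medium and in PCR cycles, which were 8 for H1299 and 9 for A549, so line, medium and cycles cannot be told apart. The labels do not say that replicates came from separate cultures, and p-values may measure technical spread. Spike-ins were added by cell number, but 0 rows of the tables are named for them, so that total RNA per cell was not measured. Fewer cells and less RNA per cell cannot be told apart in such bulk samples. The labelled lines could not be checked against their marker genes, since the tables used here do not pair human identifiers with symbols.

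By the median absolute log2 fold change, these ATPases moved less under BRM014 than all genes tested in H1299 and about as much in A549. The median absolute log2 fold change in H1299 was 0.04 for the 10 genes and 0.10 over all genes tested. In A549 these medians were 0.17 and 0.16. All genes tested include those near the filter's minimum count of 10, where counting adds more scatter. Genes with counts like those of the ATPases were not compared, so the smaller median in H1299 may reflect counts. CHD2 was the gene that rose in both lines. In A549 cells EP400, CHD2, SMARCA1 and ATRX rose and CHD4 fell, so 5 of the 10 passed an adjusted p of 0.05. Of all 15188 genes tested in A549, 37% passed, 17.7% upward and 19.4% downward, so the total for the ATPases is close to the share over all genes. In H1299 cells CHD2 rose and CHD1 fell, which is 2 of 10, beside 22% of 14986 genes tested (9.29% upward and 12.7% downward). The median log2 fold change of the 10 genes was 0.02 in H1299 and 0.13 in A549, and over all genes tested it was 0.00 in H1299 and 0.02 in A549. At an unadjusted p of 0.05, 2 of the 10 passed in H1299, beside 32.2% of all genes tested, and 6 in A549, beside 45.3%.

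**Figure D1:**
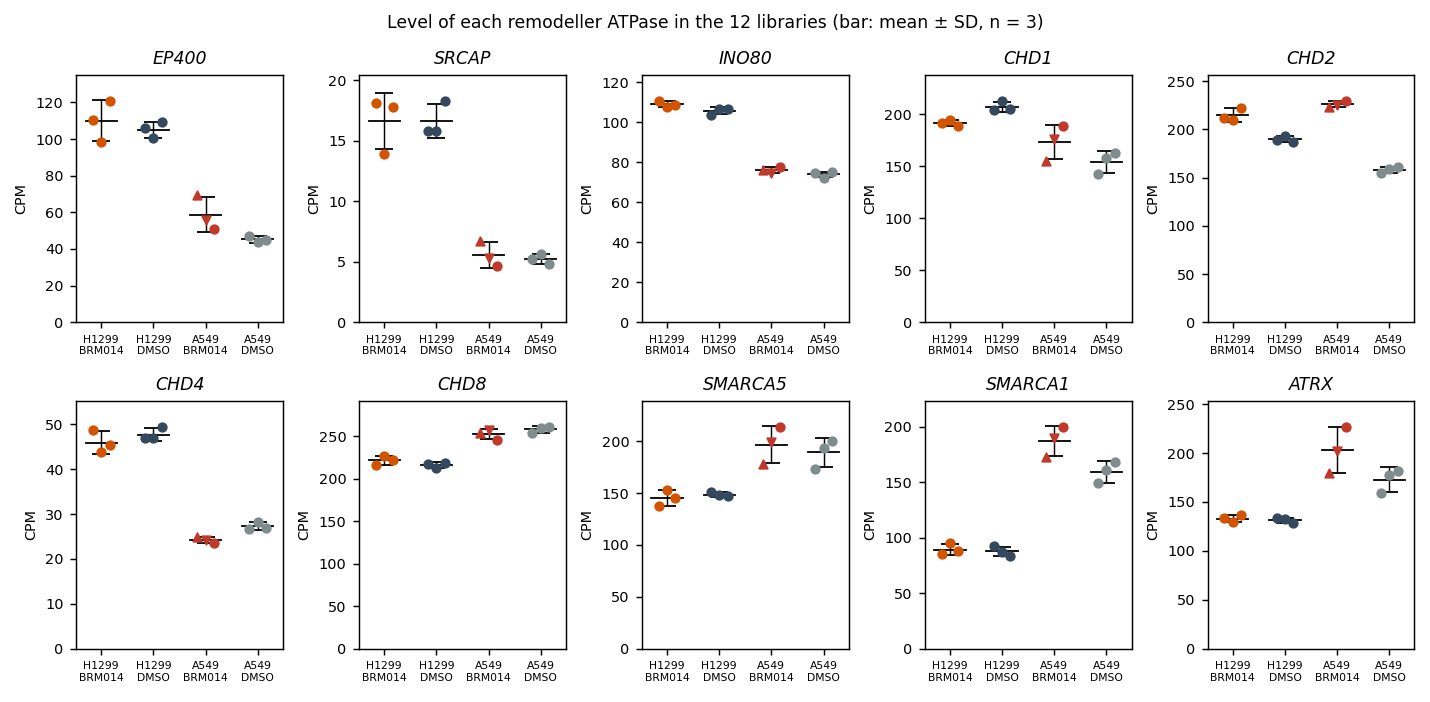
Level of each of the 10 ATPase genes in the 12 libraries, in CPM (counts scaled to library size, linear axes from 0) with scaling factors computed within each line, so only libraries of 1 line are to be compared. Dots and triangles are libraries (A549 BRM014 library a points up and library b down), the long line is the mean and the whiskers are the SD (n = 3). CHD2 stands higher in BRM014 than in DMSO libraries in both lines, while EP400 in A549 ranges from 50.99 to 69.6 CPM under BRM014 and from 43.6 to 47.1 CPM in DMSO.

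EP400 is the ATPase of the TIP60 acetyltransferase complex and exchanges histone variants at promoters and enhancers. In A549 it had 69.6 CPM (counts scaled to library size) in BRM014 library a, 55.6 CPM in library b and 50.99 CPM in replicate 3, against 47.1, 43.6 and 44.9 CPM in the DMSO libraries. All 3 BRM014 libraries lay above all 3 DMSO libraries, and they spread more widely, with library a the highest of the 6. The increase was 29.9%, with a 95% interval of 12.6 to 49.7% (log2 fold change 0.38 ± 0.09 SE, edgeR quasi-likelihood test, Benjamini-Hochberg adjusted p = 0.0079).

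The EP400 increase in A549 depended in size on library a. Without library a the log2 fold change was 0.22 (edgeR adjusted p = 0.00681). Without both unnumbered libraries, which leaves replicate 3 as the only BRM014 library and assumes that it varies like the DMSO libraries, it was 0.15 and no longer passed (edgeR adjusted p = 0.177). Leaving out any 1 of the 6 libraries gave 0.22 to 0.47, each past the threshold.

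In H1299 cells EP400 had 111, 98.4 and 121 CPM under BRM014, against 106, 100.4 and 109 CPM in DMSO. The groups overlapped, and BRM014 replicate 2 was the lowest of the 6 libraries. The log2 fold change of 0.06 ± 0.05 (SE) did not pass (edgeR adjusted p = 0.398), and its 95% interval ran from −2.31 to 11.4%. Without BRM014 replicate 2 it was 0.14 and passed (edgeR adjusted p = 0.00463). EP400 has a pseudogene of near-identical sequence, and how its reads were divided is not given in the sources used here.

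SRCAP is the ATPase that places the histone variant H2A.Z into nucleosomes at promoters, and it had the fewest counts of the 10 genes. It was counted 565 to 584 times in H1299 BRM014 libraries and 492 to 626 times in H1299 DMSO libraries. In A549 it was counted 199 to 290 times in BRM014 libraries and 226 to 239 times in DMSO libraries, where counting alone gives an error of 6.54% on the mean library. SRCAP had 6.68, 5.31 and 4.62 CPM in A549 BRM014 libraries a, b and replicate 3, against 5.23, 5.65 and 4.83 CPM in DMSO. The coefficient of variation of SRCAP under BRM014 was 19.0% in A549, beside a counting error of 6.46%, and 14.1% in H1299, beside 4.17%. Its spread between BRM014 libraries was thus wider than counting alone gives. In DMSO its coefficient of variation was 8.57% in H1299, beside a counting error of 4.31%, and 7.78% in A549, beside 6.54%, which is close. In A549 the BRM014 libraries held both the highest and the lowest value, and no shift was detectable (log2 fold change 0.08 ± 0.13 SE, edgeR adjusted p = 0.646). Its sign also turned without library a, to −0.08. In H1299 it had 18.2, 13.9 and 17.8 CPM under BRM014, against 15.8, 15.8 and 18.3 CPM in DMSO. The H1299 interval for the change ran from −11.3 to 11.9%.

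INO80, which moves nucleosomes and takes part in replication and DNA repair, varied little between replicates, with a coefficient of variation of 1.29 to 1.93% over the 4 groups. It had 110.5, 107.7 and 109 CPM in H1299 BRM014 libraries, against 104, 107 and 107 CPM in H1299 DMSO libraries. The H1299 groups were separate by a small margin, yet the change of 3.15% did not pass (edgeR adjusted p = 0.399). In A549 it had 75.8, 74.6 and 77.5 CPM under BRM014, against 74.3, 72.2 and 74.9 CPM in DMSO, and these groups overlapped. The 95% intervals of its change were −1.70 to 8.25% in H1299 and −3.32 to 9.60% in A549.

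CHD2 is a chromodomain remodeller of transcribed genes and a close relative of CHD1. In H1299 it had 212, 209.7 and 223 CPM under BRM014, against 189, 193 and 187 CPM in DMSO. In A549 it had 223, 226 and 229 CPM under BRM014, against 155, 158 and 161 CPM in DMSO. Every BRM014 library lay above every DMSO library of its line, with a far wider gap in A549 than the spread of either group.

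The CHD2 rise was 1.13-fold in H1299 (95% interval 1.08 to 1.18, edgeR adjusted p = 3.87e-05) and 1.43-fold in A549 (95% interval 1.36 to 1.51, edgeR adjusted p = 3.25e-07). Its log2 fold change in A549 was exceeded by 7.12% of the genes tested, and that in H1299 by 15.6%. CHD2 was the one gene of the 10 that passed in both lines under every alternative run, with log2 fold changes of 0.15 to 0.21 in H1299 and 0.49 to 0.56 in A549.

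CHD1 binds methylated histone H3 at active genes and spaces nucleosomes over gene bodies. In H1299 it had 192, 195 and 189 CPM under BRM014, against 204, 212 and 205 CPM in DMSO. All BRM014 libraries lay below all DMSO libraries, and CHD1 fell by 7.40% (log2 fold change −0.11 ± 0.03 SE, edgeR adjusted p = 0.00742). This call was lost without DMSO replicate 2 (−0.09, edgeR adjusted p = 0.0836), on library totals (−0.08, adjusted p = 0.0546) and where both lines shared a fit (−0.11, adjusted p = 0.208).

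In A549 CHD1 had 155, 176 and 188 CPM in BRM014 libraries a, b and replicate 3, against 142, 157 and 163 CPM in DMSO. The groups overlapped because library a lay below 2 of the DMSO libraries. The log2 fold change of 0.17 ± 0.07 (SE) did not pass (edgeR adjusted p = 0.0735). It passed without library a, at 0.23 (edgeR adjusted p = 0.00373), without both unnumbered libraries (0.26, 0.00961), on library totals (0.22, 0.0189), with no filter on low counts (0.16, 0.0232) and where both lines shared a fit (0.15, 0.039).

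CHD4 is the ATPase of the NuRD complex, which couples remodelling to histone deacetylation. In A549 it had 24.9, 24.2 and 23.6 CPM under BRM014, against 26.7, 28.3 and 27.0 CPM in DMSO. The BRM014 libraries lay below the DMSO libraries, and CHD4 fell by 11.3% (log2 fold change −0.17 ± 0.05 SE, edgeR adjusted p = 0.0267). The call was lost without DMSO replicate 2, BRM014 library b or BRM014 replicate 3, with edgeR adjusted p values of 0.0855 to 0.122, on library totals (0.0998) and without both unnumbered libraries (0.0589). In H1299 it had 48.7, 43.9 and 45.3 CPM under BRM014, against 46.9, 46.9 and 49.3 CPM in DMSO, and the groups overlapped (−0.06, edgeR adjusted p = 0.444).

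CHD8, a chromodomain remodeller that binds beta-catenin and is known from autism genetics, did not pass in either line. It had 216, 227 and 222 CPM in H1299 BRM014 libraries, against 217, 212 and 219 CPM in H1299 DMSO libraries. In A549 it had 253, 257 and 246 CPM under BRM014, against 254, 259 and 260.2 CPM in DMSO. The groups overlapped in both lines, and the 95% intervals of the change were −1.77 to 7.09% in H1299 and −7.05 to 3.00% in A549.

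SMARCA1 (SNF2L) and SMARCA5 (SNF2H) are the alternative ATPases of the ISWI complexes. In A549 SMARCA1 had 173, 189.7 and 199.6 CPM in BRM014 libraries a, b and replicate 3, against 149, 161 and 169 CPM in DMSO. Each BRM014 library lay above each DMSO library, and SMARCA1 rose by 17.4% (95% interval 7.46 to 28.3%, edgeR adjusted p = 0.00841). It passed under every alternative run in A549, with log2 fold changes of 0.18 to 0.30. In H1299 it had 85.0, 94.9 and 87.8 CPM under BRM014, against 92.1, 87.3 and 83.9 CPM in DMSO, and the groups overlapped (0.02, edgeR adjusted p = 0.751).

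SMARCA5 did not pass in either line. In H1299 it had 138, 153 and 145 CPM under BRM014, against 151, 148 and 147 CPM in DMSO. In A549 it had 178, 199 and 213 CPM in BRM014 libraries a, b and replicate 3, against 173, 194 and 200.2 CPM in DMSO. BRM014 and DMSO libraries were interleaved in both lines, and the log2 fold changes were −0.03 ± 0.04 in H1299 and 0.06 ± 0.07 in A549 (SE).

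ATRX, which with DAXX deposits histone H3.3 at telomeres and other repeats, had 179, 203 and 226 CPM in A549 BRM014 libraries a, b and replicate 3, against 159, 178 and 182 CPM in DMSO. The groups overlapped, since library a lay below the highest DMSO library. ATRX rose by 17.2% (log2 fold change 0.23 ± 0.08 SE, edgeR adjusted p = 0.0328). The call was lost without DMSO replicate 1, DMSO replicate 2, BRM014 library b or BRM014 replicate 3 (log2 fold changes 0.14 to 0.25, edgeR adjusted p 0.0602 to 0.111). Without library a the log2 fold change was 0.30 and without both unnumbered libraries it was 0.36, with edgeR adjusted p of 0.000695 and 0.000688. In H1299 ATRX had 134, 129 and 136 CPM under BRM014, against 133, 133 and 128 CPM in DMSO, and the groups overlapped (0.02, edgeR adjusted p = 0.804).

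Counted by separation of the libraries alone, 3 of the 10 genes in H1299 (INO80, CHD1 and CHD2) and 4 in A549 (EP400, CHD2, CHD4 and SMARCA1) had BRM014 and DMSO libraries that did not overlap. Over all genes tested that share was 35.2% in H1299 and 48.2% in A549. Both counts lie near those shares.

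**Figure D2:**
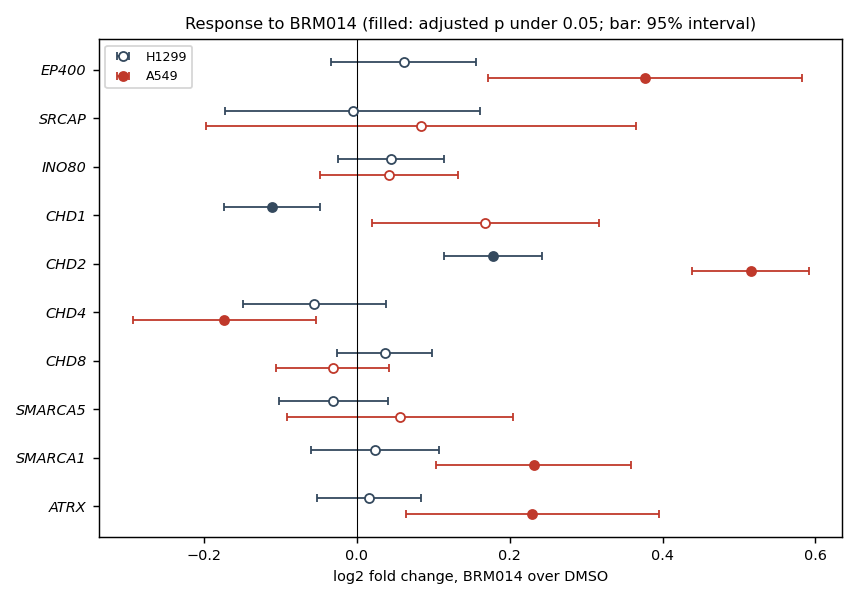
Log2 fold change of each ATPase gene, BRM014 over DMSO, in H1299 and A549 (edgeR, n = 3 libraries per group, bars are 95% intervals, filled points have an adjusted p under 0.05). CHD2 is filled in both lines, at 0.18 in H1299 and 0.52 in A549, and the CHD1 points lie on opposite sides of 0, at −0.11 in H1299 and 0.17 in A549.

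The response differed between the lines for CHD1 and CHD2, by an interaction test of line and treatment over all 12 libraries. That is 2 of 10 genes, both more negative in H1299, beside 19.5% of the 16466 genes tested (10.2% more positive and 9.25% more negative), and 5 of 10 at an unadjusted p of 0.05, beside 30.6% of all genes tested. The CHD2 change was lower in H1299 than in A549 by 0.31 on the log2 scale (difference −0.31 ± 0.05 SE, edgeR adjusted p = 7.42e-05). The CHD1 change was lower in H1299 than in A549 as well (difference −0.25 ± 0.08 SE, edgeR adjusted p = 0.0214). Fitted within each line, CHD1 fell in H1299 and did not pass in A549. The fit shared by both lines, which gave this difference, had these calls the other way round. There CHD1 rose in A549 (0.15, edgeR adjusted p = 0.039) and did not pass in H1299 (−0.11, 0.208). The CHD1 difference was lost, at adjusted p of 0.0517 to 0.0613, without A549 DMSO replicate 1, A549 BRM014 library b, H1299 DMSO replicate 2 or H1299 BRM014 replicate 3.

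For EP400, which passed in A549 and not in H1299, the difference itself was −0.29 ± 0.11 (SE) and did not pass (edgeR adjusted p = 0.0671). It passed without A549 DMSO replicate 1 (−0.32, edgeR adjusted p = 0.0455), without A549 BRM014 replicate 3 (−0.39, 0.00247) and without H1299 BRM014 replicate 3 (−0.36, 0.0291). It also passed on library totals (−0.33, edgeR adjusted p = 0.0455) and with no filter on low counts (−0.29, 0.00371). Without library a it was −0.16 (edgeR adjusted p = 0.175) and without both unnumbered libraries −0.08 (0.599). SMARCA1 and ATRX, which also passed in A549 alone, had differences of −0.18 and −0.19 that did not pass (edgeR adjusted p = 0.123 and 0.135). Without library a they were −0.24 for SMARCA1 and −0.27 for ATRX, and both passed (edgeR adjusted p = 0.0115 and 0.00275). Both also passed without both unnumbered libraries (SMARCA1 −0.27, edgeR adjusted p = 0.0151, and ATRX −0.34, 0.000709) and with no filter on low counts (SMARCA1 −0.19, 0.0459, and ATRX −0.19, 0.0359). SMARCA1 passed as well on library totals (−0.22, edgeR adjusted p = 0.0396) and without A549 DMSO replicate 3 (−0.22, 0.0361).

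The lines also differed in the levels of these ATPases without inhibitor. In DMSO, 9 of the 10 genes passed between H1299 and A549, beside 85.7% of all 16466 genes tested, so such a difference was the rule over all genes. EP400, SRCAP, INO80, CHD1 and CHD4 were higher in H1299, and CHD8, SMARCA5, SMARCA1 and ATRX were lower, beside 42.9% of all genes higher and 42.8% lower. The libraries of the lines did not overlap for those 9 genes, as for 86.6% of all genes. The values that follow are CPM with scaling factors computed over all 12 libraries, and differ slightly from those within a line. Scaling by library totals moved the median of all genes by 0.23 on the log2 scale in this comparison. The 9 directions were the same under it.

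EP400 had 99.1, 93.3 and 101 CPM in H1299 DMSO libraries, against 50.9, 47.7 and 49.2 CPM in A549 DMSO libraries. The lines were well apart, and EP400 was 1.99-fold higher in H1299 (95% interval 1.77 to 2.22, edgeR adjusted p = 1.87e-11). Over the 4 groups EP400 ran, from the top, 102 ± 10.1 CPM in H1299 BRM014, 97.9 ± 4.15 CPM in H1299 DMSO, 63.0 ± 10.3 CPM in A549 BRM014 and 49.3 ± 1.61 CPM in A549 DMSO (SD, n = 3). The upper pair of groups, both H1299, did not differ beyond their spread. BRM014 left EP400 in A549 below every H1299 library.

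SRCAP had 14.8, 14.6 and 17.0 CPM in H1299 DMSO libraries, against 5.66, 6.18 and 5.29 CPM in A549 DMSO libraries. It was 2.71-fold higher in H1299 (95% interval 2.30 to 3.19, edgeR adjusted p = 1.66e-11), the widest fold upward among the 10. SMARCA1 had 86.2, 81.0 and 77.9 CPM in H1299, against 161, 176 and 185 CPM in A549. This was the widest fold downward among the 10, at 0.471 (95% interval 0.433 to 0.511, edgeR adjusted p = 5.53e-15). In both genes no library of one line came near those of the other.

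The other CHD genes lay between these extremes. CHD4 was 1.49-fold in H1299 relative to A549, at 44.4 ± 1.19 CPM in H1299 and 29.8 ± 1.08 CPM in A549 (SD, n = 3; edgeR adjusted p = 2.22e-10). CHD1 averaged 193 ± 3.97 CPM in H1299 and 168 ± 12.4 CPM in A549 (edgeR adjusted p = 0.00185), and CHD8 averaged 201 ± 3.79 CPM in H1299 and 281 ± 5.68 CPM in A549 (edgeR adjusted p = 7.22e-12). INO80 had 97.1 to 99.03 CPM in H1299 and 79.0 to 81.9 CPM in A549 (edgeR adjusted p = 1.81e-07).

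SMARCA5 averaged 138 ± 2.72 CPM in H1299 DMSO libraries and 206 ± 16.5 CPM in A549 DMSO libraries (SD, n = 3; edgeR adjusted p = 1.88e-09). ATRX averaged 122 ± 2.85 CPM in H1299 and 188 ± 14.7 CPM in A549 (edgeR adjusted p = 1.03e-09). Both ISWI genes and ATRX thus stood lower in H1299, with SMARCA1 the farthest apart.

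CHD2 was the one gene of the 10 that did not pass in DMSO. It had 177, 179.6 and 174 CPM in H1299, against 167, 173 and 176 CPM in A549, and the libraries overlapped. The ratio of H1299 to A549 had a 95% interval of 0.973 to 1.08 (edgeR adjusted p = 0.351). On library totals its log2 difference was 0.26 and passed (edgeR adjusted p = 2.93e-07), where the median of all genes had moved by 0.23. It also passed with a stricter filter on low counts, at 0.08 (edgeR adjusted p = 0.042). Under BRM014 CHD2 averaged 200.1 ± 6.25 CPM in H1299 and 242 ± 3.65 CPM in A549 (SD, n = 3), and these groups did not overlap. This difference was not tested, and the share of all genes without overlap was not counted for it. It rests on the scaling between the lines, on which the DMSO difference of CHD2 also depended.

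**Figure D3:**
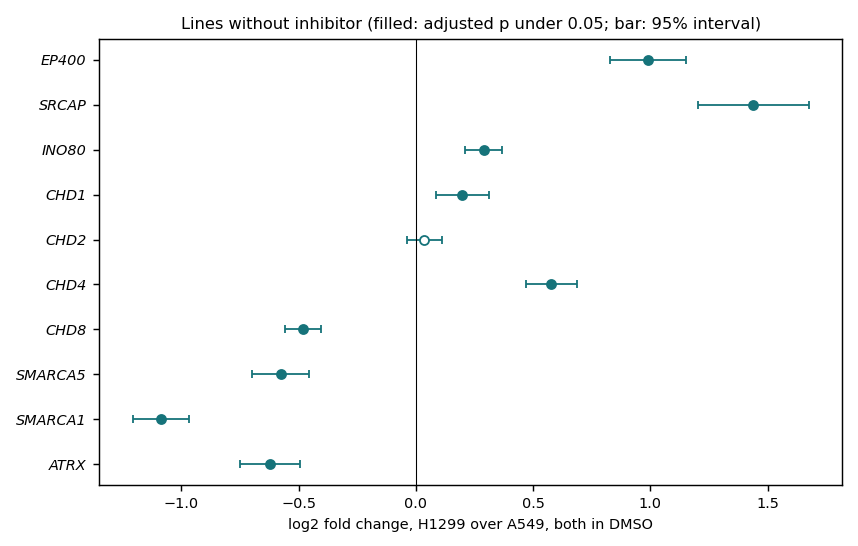
Log2 fold change of each ATPase gene in DMSO libraries, H1299 over A549 (edgeR, n = 3 libraries per line, bars are 95% intervals, filled points have an adjusted p under 0.05). SRCAP, at 1.44, and SMARCA1, at −1.09, lie at the ends, and CHD2, at 0.04, is the open point near 0.

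Shares of the counts of all 10 genes within a library do not depend on the scaling factor, but each share also moves with the other 9 genes. Gene length enters each share, so shares of different genes are not compared. CHD2 took 16.8 ± 0.346% of the summed counts in H1299 BRM014 libraries and 15.1 ± 0.261% in H1299 DMSO libraries. In A549 it took 16.1 ± 0.481% under BRM014 and 12.7 ± 0.299% in DMSO (SD, n = 3). The BRM014 libraries were above the DMSO libraries in both lines. The shares of the other genes that rose in A549 overlapped between the groups. EP400 took 3.50 to 5.20% under BRM014 and 3.47 to 3.97% in DMSO, SMARCA1 took 12.9 to 13.7% under BRM014 and 12.6 to 13.1% in DMSO, and ATRX took 13.4 to 15.5% under BRM014 and 13.4 to 14.2% in DMSO. CHD4 in A549 took 1.62 to 1.86% under BRM014 and 2.10 to 2.25% in DMSO, without overlap. CHD1 in H1299 took 14.6 to 15.3% under BRM014 and 16.2 to 16.9% in DMSO, also without overlap. A lower share in A549 was not particular to CHD4, since CHD8, INO80 and SMARCA5, which did not pass, were separated as well. CHD8 took 16.8 to 18.9% under BRM014 and 20.2 to 21.4% in DMSO. INO80 took 5.29 to 5.67% and 5.74 to 6.27%, and SMARCA5 took 13.27 to 14.62% and 14.63 to 15.57%, in the same order.

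Ratios within pairs of related genes had higher means under BRM014 in both lines, and no test was run on them. The log2 ratio of CHD2 to CHD1 counts was 0.16 ± 0.07 under BRM014 and −0.13 ± 0.01 in DMSO in H1299. In A549 it was 0.39 ± 0.12 under BRM014 and 0.04 ± 0.07 in DMSO. The log2 ratio of SMARCA1 to SMARCA5 was −0.70 ± 0.02 under BRM014 and −0.76 ± 0.05 in DMSO in H1299, where libraries overlapped. In A549 it was −0.07 ± 0.03 under BRM014 and −0.25 ± 0.03 in DMSO, and the groups did not overlap (SD, n = 3).

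The summed level of the 10 genes was 1277 ± 16.6 CPM under BRM014 and 1256 ± 2.45 CPM in DMSO in H1299. In A549 it was 1402 ± 60.9 CPM under BRM014 and 1243 ± 52.0 CPM in DMSO (SD, n = 3). The libraries of the groups did not overlap in either line. In H1299 the mean of CHD2 alone was 214.7 CPM under BRM014 and 189.7 CPM in DMSO, a larger step than that of the sum. Of the 10 log2 fold changes in H1299, 6 were above 0 and 4 below. The separation of the sums in H1299 therefore does not show that the genes other than CHD2 rose. The sum weights each gene by its counts, so long and abundant transcripts carry most of it.

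**Figure D4:**
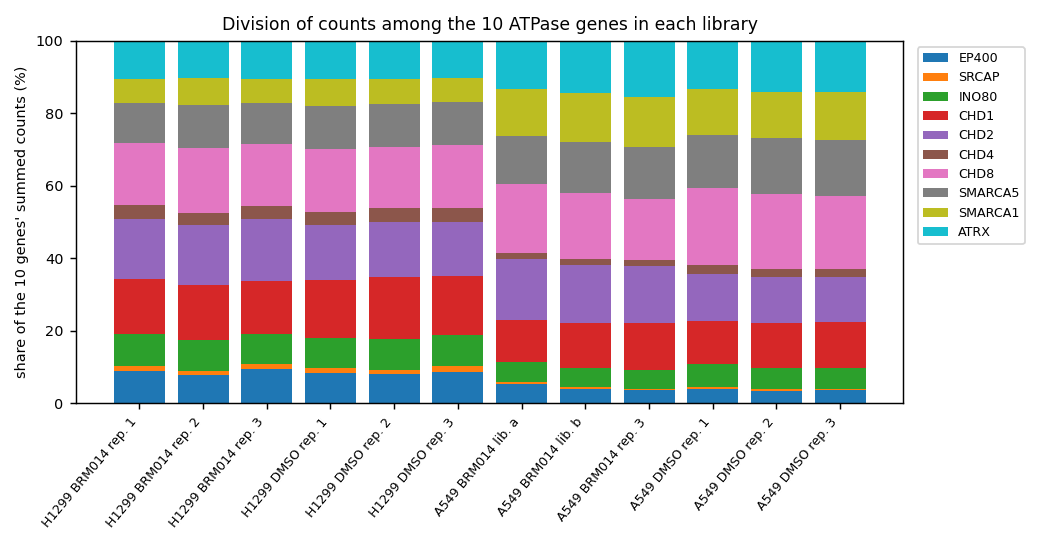
Share of each ATPase gene in the summed counts of all 10 genes (vertical axis, percent) in each of the 12 libraries. The CHD2 band averages 16.8% in H1299 BRM014 and 15.1% in H1299 DMSO libraries, and 16.1% in A549 BRM014 and 12.7% in A549 DMSO libraries, while the SMARCA1 band is narrower in H1299 than in A549.

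Libraries of the same group did not scatter independently from gene to gene. After subtracting each group's mean, EP400 and SRCAP deviated together over the 12 libraries (Pearson r of log2 CPM = 0.85). CHD1, SMARCA5, SMARCA1 and ATRX also deviated together, with r of 0.75 to 0.95 over their 6 pairs. The pairs across these sets had r of −0.82 to −0.56. The pattern did not hold in every group, and the largest deviations of EP400 and SRCAP lay in BRM014 libraries. In A549 DMSO replicates 1 to 3 EP400 lay at 0.05, −0.05 and −0.003, and SRCAP at −0.01, 0.12 and −0.11. In H1299 BRM014 replicate 2 CHD1, SMARCA5 and SMARCA1 lay at 0.03, 0.08 and 0.10, and ATRX at −0.03. These genes were grouped after their values were seen, the libraries share their scaling, and what separates them was not tested.

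Library a of A549 BRM014 lay at one end of this pattern, with EP400 and SRCAP at a mean of 0.27 above their group on the log2 scale and the other set at −0.15. BRM014 replicate 3 lay at the other end, at −0.22 for EP400 and SRCAP and 0.12 for the other set. Library b lay between them, at −0.04 and 0.03. The scatter was not confined to BRM014 libraries, as A549 DMSO replicate 1 lay at −0.12 for the other set. For EP400 and SRCAP that DMSO library lay at 0.02. In H1299 the largest mean deviation of EP400 and SRCAP was that of BRM014 replicate 2, at −0.19, beside 0.05 for the other set.

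**Figure D5:**
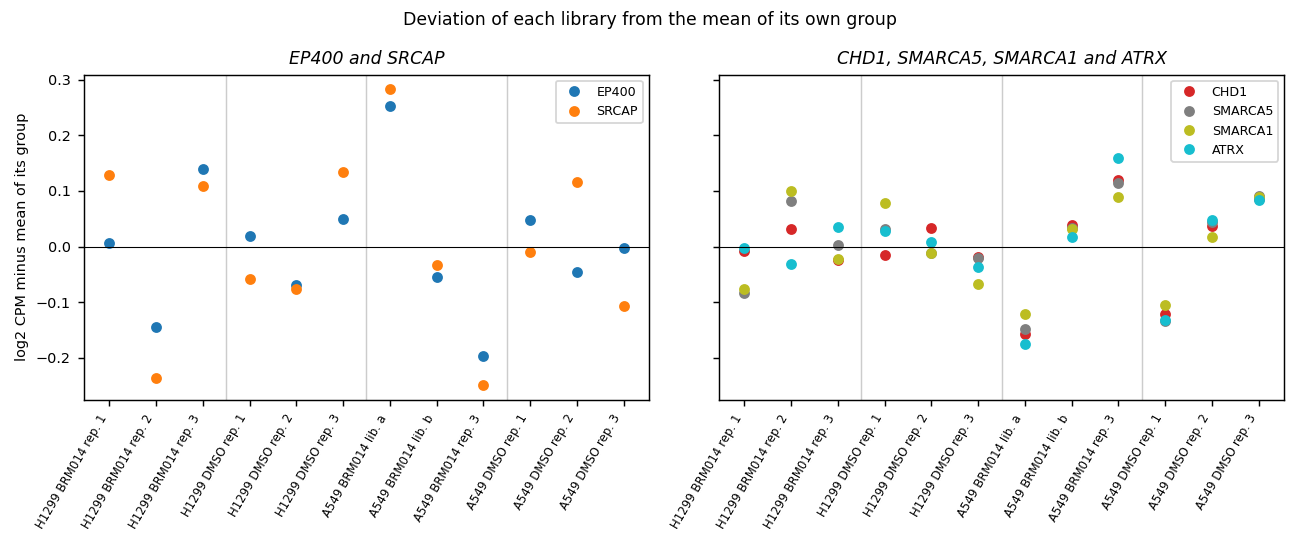
Log2 CPM of each library minus the mean of its own group (vertical axis), for EP400 and SRCAP on the left and for CHD1, SMARCA5, SMARCA1 and ATRX on the right. A549 BRM014 library a is high on the left (mean 0.27) and low on the right (mean −0.15), and A549 BRM014 replicate 3 is low on the left (mean −0.22) and high on the right (mean 0.12).

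The pattern of EP400 over the 12 libraries, after subtracting each line's mean, was compared with the other ATPase genes of this set only. Among them it was most like that of CHD2 (Pearson r = 0.70) and SRCAP (0.65). INO80, SMARCA1 and ATRX followed at 0.21, 0.16 and 0.13, which are weak. CHD1, CHD8, SMARCA5 and CHD4 had negative values, at −0.10, −0.29, −0.41 and −0.50. With the group means subtracted, r was 0.85 for SRCAP and −0.13 for CHD2. These values are descriptions over libraries that share treatment, depth and scaling.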

How the data were processed

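RNA-seq counts per gene were deposited as raw whole-number count tables, 1 per line, and were read as the authors made them. Per the labels' protocols, libraries were stranded total RNA depleted of ribosomal RNA, made from 500 ng. Per the submitters' processing notes, the tools include STAR 2.7.3a, Bowtie 1.2.2, cutadapt 1.14, DESeq2 and featureCounts, with build hg38. Neither strand setting nor annotation is given in the sources used here, so reads shared with overlapping or antisense genes cannot be told apart. Genes passing edgeR's filterByExpr (minimum count 10, minimum total 15) were fitted within each line, and jointly over both lines for comparisons between them, with TMM factors and edgeR 4.0.16's quasi-likelihood test in R 4.3.3 (two-sided, Benjamini-Hochberg over all genes tested, threshold 0.05). SEs came from the fold change and its F statistic. CPM used TMM library sizes. DESeq2 1.42.0 and limma 3.58.1 voom were alternatives. The steps were run on simulated counts in which all genes shared the same relative spread and few genes changed. That setting is simpler than these data, so it does not show how the steps perform on them. All 10 genes are named in each comparison, and the 5 genes most like EP400 were to be named among those with a symbol. Only the 10 genes had a symbol here. The genes and lists were chosen with earlier results of these data known. Human gene names, lengths, sequences and positions, partner subunits and the other 95 samples of the series were not analysed here.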

Additional observations from a re-analysis of the deposited data

Results flagged for a closer look

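CHD2 and CHD1 responded to BRM014 differently in H1299 than in A549, by the interaction test over all 12 libraries. For CHD2 the difference, H1299 minus A549, was −0.31 on the log2 scale (edgeR adjusted p = 7.42e-05), and the gene was higher under BRM014 in 3 of 3 libraries of each line. For CHD1 it was −0.25 (edgeR adjusted p = 0.0214), with all 3 BRM014 libraries below the DMSO libraries in H1299 and overlapping groups in A549.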

How the results depend on the processing

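Of the values of single genes under the alternatives, 126 of 140 in H1299, 120 of 140 in A549, 177 of 200 for the difference between responses and 198 of 200 in DMSO kept their direction and their side of the threshold. Leaving out 1 library gave 1 to 3 of 10 genes changed in H1299 (1 to 2 up, 0 to 1 down), 3 to 6 in A549 (3 to 5 up, 0 to 1 down), 1 to 4 with different responses (1 to 4 more negative and 0 more positive in H1299), and 9 in DMSO. On library totals, 1 gene changed and 0 fell in H1299, 0 fell in A549 and 4 responses differed, 4 of them more negative in H1299. A joined fit for H1299 gave 1 changed and 0 down. With no filter on low counts 5 responses differed, 5 of them more negative. Leaving out both unnumbered A549 BRM014 libraries, an alternative chosen after seeing the data, leaves replicate 3 as the only BRM014 library there. The A549 log2 fold change was then 0.15 for EP400, against 0.38 in the main fit, and 0.26 for CHD1, against 0.17. The difference between responses was −0.08 for EP400, against −0.29, and −0.37 for CHD1, against −0.25. The cause was not tested.

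Signs turned for values that had not passed. On library totals these were SRCAP (0.0277) and SMARCA5 (0.00156) in H1299, CHD8 (0.0185) in A549 and the INO80 difference (−0.0123). With a minimum of 5 CPM in 3 libraries it was SRCAP in H1299 (0.000501). Without both unnumbered libraries they were SRCAP in A549 (−0.20) and its difference (0.20). Over single libraries left out, values in H1299 ran from −0.0114 to 0.14 for EP400, −0.0735 to 0.12 for SRCAP, −0.0690 to 0.00566 for SMARCA5, −0.0254 to 0.0638 for SMARCA1 and −0.00175 to 0.0370 for ATRX. In A549 they ran from −0.0849 to 0.20 for SRCAP and −0.00568 to 0.11 for SMARCA5, and for the differences from −0.19 to 0.0853 for SRCAP and −0.14 to 3.33e-05 for SMARCA5.

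With the replicate number as a block, 2 genes changed in H1299 (CHD2 0.18, CHD1 −0.11) and 2 responses differed (CHD2 −0.31, CHD1 −0.26), and 9 genes passed between the lines in DMSO. Same-numbered libraries did not deviate together (r −0.0475 to 0.00961 in H1299, and −0.0287 to 0.00683 between DMSO libraries of the lines), so no pairing by number was seen. Deviations from the means of 3 libraries cannot exclude that same-numbered samples were paired. No paired analysis was possible in A549 because 2 BRM014 columns carry no number. Depth limits SRCAP most, whose counts in A549 were 199 to 290 under BRM014. Its coefficient of variation there, 19.0%, was still wider than the counting error of 6.46%.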
